A study of Rattus norvegicus with 4 samples.

Results

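Loci whose first gene symbol is a placeholder, LOC or RGD followed by a number, were taken from a comparison of female with male rat kidney inner medulla. They were 820 of 35374 loci in the deposited table, all of them with an RGD number, 0 with a LOC number. The libraries were total RNA from Sprague Dawley rats of both sexes, bought at 13 to 15 weeks of age, put on chow with 0.49% NaCl at 14 to 16 weeks and kept on it for 2 weeks, with no other treatment and no other diet compared here. Each sex had 2 libraries, each made from a pool of 4 rats, and the libraries held 34552171 to 41945343 read pairs. The deposited table joins both pools of a sex into 1 level in FPKM, fragments scaled to transcript length and to sequencing depth, so the levels carry no SD and no n. The error measure is the p-value of the authors' deposited table, or its q-value adjusted over all tested loci, and a locus is called where q is under 0.05. In such bulk tissue, fewer cells of a type and less RNA per cell cannot be told apart.

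An RGD number is a provisional symbol of the Rat Genome Database, given to a predicted gene before it had a name. Later annotation can give the gene a name carried over from human or mouse, merge it with another gene, mark it as a pseudogene or withdraw it. Predicted loci of this kind often include processed copies of highly expressed genes, such as those of ribosomal proteins, which were copied back into the genome from messenger RNA. The inner medulla, where urine is concentrated, is rich in collecting duct, and here the collecting duct markers Aqp2, Aqp3, Aqp4, Avpr2, Slc14a2, Scnn1b and Fxyd4 were all tested, with a summed level of 14719 FPKM in female and 20263 in male pools.

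Of the 820 loci, 464 had a symbol that the RefSeq table of assembly GRCr8 lists as an older name of a gene, 22 had one that is still the current symbol there, and 334 had no match. Among the 486 matched loci, 453 were protein-coding, 28 pseudogenes, 4 long noncoding RNA and 1 another RNA class. The 820 rows carried 792 distinct symbols, 25 of which stood on more than 1 row. The intervals of 167 rows (20.4%) were listed for another locus as well, against 22.8% of all loci. Of the matched loci, 81 bear names of the form C8h15orf39, which state the rat chromosome and the human open reading frame, and all 81 were listed on the chromosome that the name gives.

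The promoters of 4 loci are shown: AKR1C3l1 and Epcip, which were called between the sexes, Ecrg4, the abundant locus nearest to a call, and Ciart, a repressor of the circadian clock. Each runs from 250 bases before to 50 bases after the gene's start, 5′ to 3′, as given by RefSeq for GRCr8. Capitals mark matches, on either strand, to TATAAA (the TATA box), CCAAT (the CCAAT box), CACGTG (the E-box), TGACNNNGC (core of the antioxidant response element) and AGAACA (a single arm of the androgen and glucocorticoid response element, whose full palindrome was searched as well).
AKR1C3l1 (GRCr8, chr17:70757251-70757550, plus strand): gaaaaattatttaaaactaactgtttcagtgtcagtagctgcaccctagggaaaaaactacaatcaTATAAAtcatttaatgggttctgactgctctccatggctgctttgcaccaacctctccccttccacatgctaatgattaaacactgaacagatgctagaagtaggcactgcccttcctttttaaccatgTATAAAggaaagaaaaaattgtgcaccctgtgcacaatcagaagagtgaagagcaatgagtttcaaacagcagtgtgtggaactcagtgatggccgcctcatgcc
Epcip (GRCr8, chr11:43811339-43811638, minus strand): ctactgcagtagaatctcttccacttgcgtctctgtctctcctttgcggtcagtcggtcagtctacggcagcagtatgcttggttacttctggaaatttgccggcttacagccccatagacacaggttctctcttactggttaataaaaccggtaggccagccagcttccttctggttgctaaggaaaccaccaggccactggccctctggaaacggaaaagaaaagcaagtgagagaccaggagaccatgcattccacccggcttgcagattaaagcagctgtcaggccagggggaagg
Ecrg4 (GRCr8, chr9:53484790-53485089, plus strand): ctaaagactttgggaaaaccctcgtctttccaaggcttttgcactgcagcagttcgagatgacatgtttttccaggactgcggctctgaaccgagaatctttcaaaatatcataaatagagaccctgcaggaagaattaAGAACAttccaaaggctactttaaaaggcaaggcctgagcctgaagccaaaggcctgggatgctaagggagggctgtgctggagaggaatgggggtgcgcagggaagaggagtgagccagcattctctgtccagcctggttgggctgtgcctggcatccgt
Ciart (GRCr8, chr2:186112197-186112496, minus strand): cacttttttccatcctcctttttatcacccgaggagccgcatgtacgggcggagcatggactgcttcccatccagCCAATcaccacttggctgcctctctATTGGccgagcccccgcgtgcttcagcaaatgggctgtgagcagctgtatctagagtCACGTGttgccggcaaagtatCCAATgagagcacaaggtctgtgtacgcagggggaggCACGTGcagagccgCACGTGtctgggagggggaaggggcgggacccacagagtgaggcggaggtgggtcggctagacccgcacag

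The AKR1C3l1 window held 2 matches to TATAAA, that of Ecrg4 held 1 AGAACA, and that of Epcip held none of the motifs. The Ciart window held 3 CACGTG motifs and 3 CCAAT motifs. A promoter sequence was found for 255 of 293 current symbols among tested loci. Of these 255, 11.4% held CACGTG, against 6.42% of all 33469 promoters and 7.02% of protein-coding ones. TATAAA stood in 3.92% of them against 14.2% of all promoters and 13.0% of protein-coding ones. AGAACA stood in 11.0% against 20.7% and 18.2%. These backgrounds were not limited to genes of tested loci, so the shares do not compare like with like. CCAAT (36.9% against 37.5%) and TGACNNNGC (12.9% against 12.1%) were at close shares, and the full palindrome stood in 0 of 255 and in 5 of all promoters. These are counts of letters in a window and not of bound sites.

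A smaller share of the placeholder loci was tested by the authors than of loci with another symbol. It was 366 of the 820 (44.6%), against 65.2% of 19420 loci with another symbol and 48.04% of 15134 loci without any symbol. Of the 454 that were not tested, 264 were listed at 0 in both sexes and 190 had a value above 0 in a sex, the highest mean of which was 0.312 FPKM. The share tested differed by the present status of the symbol. It was 62.1% of the 464 loci that now have a gene name, 31.8% of the 22 whose placeholder is still current and 21.3% of the 334 without a match. Loci at 0 in both sexes made up 17.7%, 36.4% and 52.1% of these 3 groups. The listed intervals were also short for the unmatched loci, with a median of 1490 bases against 17320 for those with a current name and 21227 for loci with another symbol. Loci without any symbol were short as well, with a median of 1191. Among tested loci the medians were 14341 bases for unmatched loci, 22199 for those with a current name and 27204 for loci with another symbol.

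**Figure D1:**
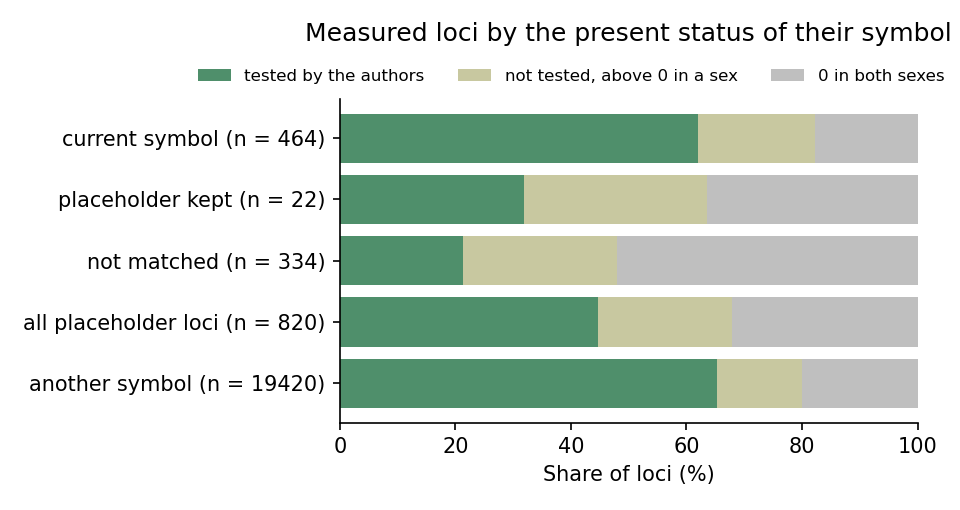
Share of loci (x axis, percent) that were tested by the authors, not tested but above 0 in a sex, or at 0 in both sexes, for placeholder loci by the present status of their symbol, for all 820 and for loci with another symbol. The tested share is 62.1% for loci that now have a gene name and 21.3% for those without a match.

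By type of current name, 63 of 81 loci with an open reading frame name were tested, 9 of 12 with a transmembrane protein name (Tmem or Smim), 5 of 7 with a Kiaa name and 5 of 14 with a mouse clone name ending in Rikl or a like form. By contrast, 6 of 28 pseudogenes and 1 of 5 loci named as copies of ribosomal proteins were tested. Of the 25 symbols on more than 1 row, 13 were at 0 on every row, and 2 were tested on 2 rows. One of the latter is RGD1564419, now Hoxa11-as, a long noncoding RNA antisense to a homeobox gene, whose rows share 1 interval (chromosome 4, 146837243 to 146971414) and were at 4.64 FPKM in females against 3.30 in males and at 1.04 against 1.16. Whether strand was used in counting is not given in the sources used here, so reads of such an antisense RNA and of the genes it overlaps cannot be told apart.

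Levels of the tested loci ran over a wide range, with a median mean of both sexes of 5.91 FPKM against 11.5 for loci with another symbol. There were 301 loci at 1 FPKM or more, 140 at 10 or more and 17 at 100 or more. The 2 highest were far above the rest. RGD1565183 (chromosome 1, 75912909 to 75914436), still a placeholder, was at 1822 FPKM in female and 1835 in male pools. Another tested row of this symbol (chromosome 1, 85803118 to 85806115, an interval shared with another locus) was at 10.1 FPKM in female and 9.20 in male pools. RGD1562469 (chromosome 12, 12104736 to 12106565), which has no match, was at 1614 and 1584 FPKM. At the 2 highest loci the sexes were nearly level, with log2 ratios of female to male of -0.01 and 0.03.

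Positions were compared with the order of genes in RefSeq. The higher row of RGD1565183 lies between Il11 and Ube2s, where RefSeq places 3 coding genes. Of these, Rpl28, a protein of the large ribosomal subunit, is the only one without a row of its own. RGD1562469 lies between Rasl11a and Usp12, where RefSeq places Rpl21, another protein of that subunit. The symbol Rpl21 stands on a row of the table, but the position of that row was not checked. A gene counted as having a row where its symbol stood anywhere in the table. RGD1560648 (chromosome 5, 171566143 to 171582474), now listed as the pseudogene Park7-ps2, was at 345 FPKM in female and 341 in male pools. It lies between Errfi1 and Tnfrsf9, and the coding gene there in RefSeq is Park7, a protector against oxidative stress that has no row of its own. RGD1308005, now the pseudogene Tigar-ps1, was at 4.63 and 4.21 FPKM and lies between Parp11 and Fgf23, where Tigar, a regulator of glycolysis, is the coding gene without a row. A single coding gene without a row lay between the flanks of 133 loci with a current coding name. For 125 of these (94.0%) it was the gene of that name. Current names of placeholder loci did not count as rows, so such a locus in its RefSeq place left its own gene without one. The share thus cannot show how far order identifies pseudogenes or loci without a current coding name, which it left out. For 22 of 71 tested loci without a match a single coding gene without a row was found, and none was given its name here.

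Of the 10 loci of highest level, 7 had a current coding name. Bola2 (RGD1565363), which acts in the maturation of iron-sulfur proteins, was at 469 FPKM in female and 499 in male pools. A separate row under the symbol Bola2 lies on another chromosome and was not tested. Tmem59, a membrane protein of the Golgi, was at 449 and 445 FPKM. Trir, an enzyme that degrades RNA, was at 221 and 243, and Rtraf, a subunit of the RNA ligase complex that splices transfer RNA, at 207 and 225. Rsrp1, a protein rich in arginine and serine, was at 193 and 238 FPKM, and Smim22, a small membrane protein, at 171 and 213. The last 4 were higher in males by 0.12 to 0.32 on the log2 scale, and none was called. Ecrg4 (chromosome 9, 50155328 to 50212726), which encodes the secreted peptide precursor augurin, stood apart, at 301 FPKM in female and 427 in male pools, a fold of 1.42 for which the authors' deposited table gives p = 0.0026 and q = 0.0853.

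Between the sexes, 3 of the 366 tested placeholder loci were called (0.82%), 2 towards females and 1 towards males. The background was 2.34% of all 20307 tested loci, made up of 1.63% towards females and 0.719% towards males, and 2.61% of tested loci with another symbol. At p under 0.05 with no adjustment, 18 placeholder loci passed in the authors' deposited table (4.92%, against 9.77% of all tested loci), 13 towards females and 5 towards males, against backgrounds of 6.08% and 3.68%. At q under 0.1 there were 5, against 3.4% of all tested loci. By level, calls were 0 of 65 loci under 1 FPKM, 3 of 161 at 1 to 10, 0 of 123 at 10 to 100 and 0 of 17 at 100 or more. All tested loci had 61 of 3323, 246 of 9395, 142 of 6526 and 27 of 1063 called in these ranges. The share of placeholder loci was the lower one in each range, and this difference was not tested. In the lowest and highest ranges, 0 calls among 65 and 17 loci says little beside background shares of 1.84% and 2.54%.

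**Figure D2:**
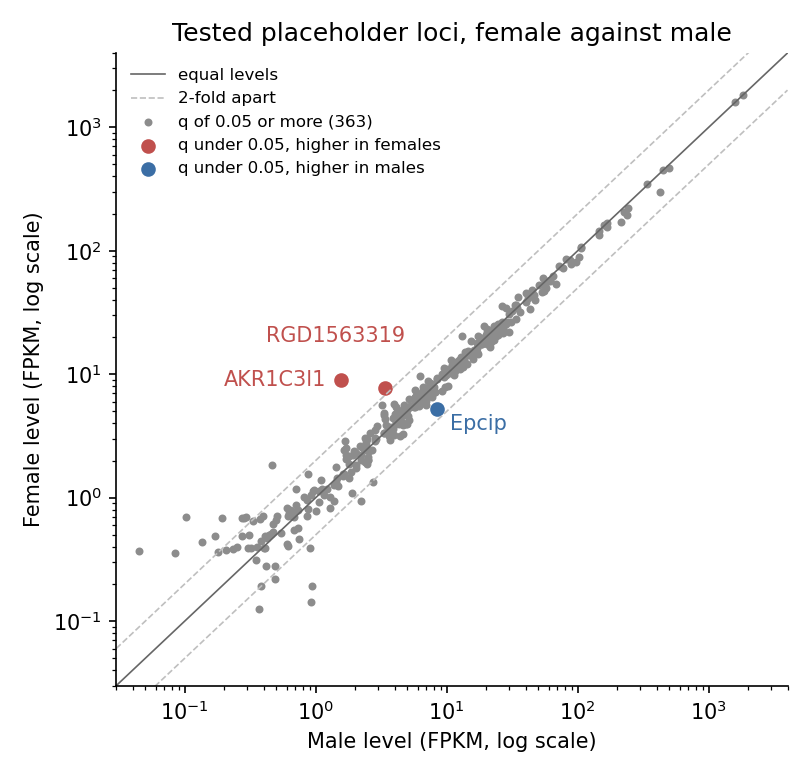
Female level against male level (FPKM, both axes logarithmic) of the 366 tested placeholder loci, 1 point per locus, with lines for equal levels and for a 2-fold difference. The 3 called loci lie between 1.55 and 9.00 FPKM, and loci above 100 FPKM lie close to the line of equal levels.

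The largest called difference was at AKR1C3l1 (RGD1564865, chromosome 17, 71182339 to 71211047), an aldo-keto reductase of the 1C family, whose members reduce steroids, prostaglandins and foreign carbonyl compounds. It was at 9.00 FPKM in female and 1.55 in male pools, 5.80-fold apart, and the authors' deposited table gives q = 0.00391. The locus lies in a row of related genes that did not share a direction. Akr1c1, directly before it, was at 2.41 FPKM in female and 0.294 in male pools, also called (q = 0.00391 in the authors' deposited table). The joined locus of Akr1c12l1 and Akr1c13, directly after it, was called the other way, at 1.52 FPKM in female and 6.75 in male pools. Akr1c14, at 1.21 and 0.281 FPKM, was called as well, and the authors' deposited table gives it q = 0.0193. Akr1c19 (28.9 and 30.9 FPKM) and Akr1c12 (25.2 and 21.3 FPKM), the most abundant of the row, were not called. Members of this family are close in sequence, Akr1c1 and AKR1C3l1 overlap in RefSeq, and how reads were divided between them is uncertain.

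**Figure D3:**
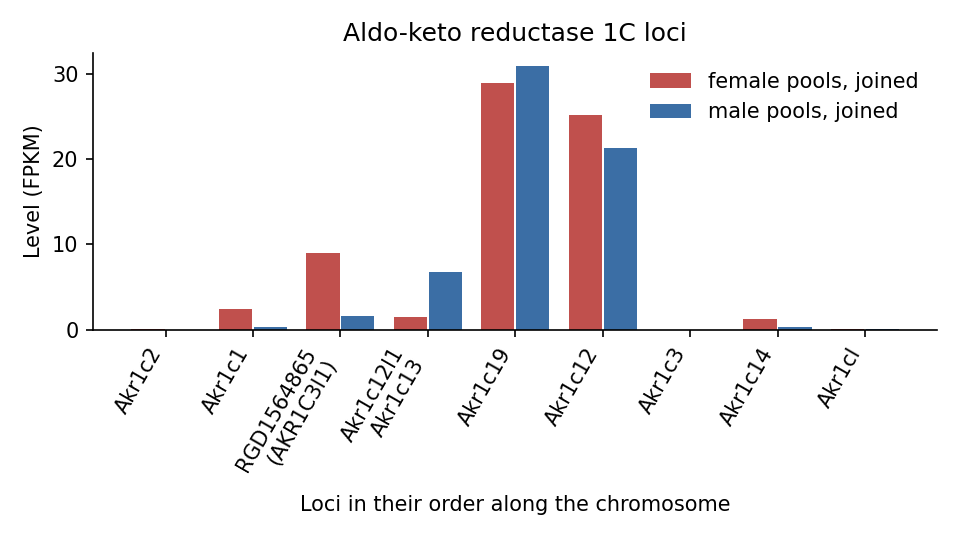
Level (FPKM) of the aldo-keto reductase 1C loci in their order along the chromosome, with 1 bar for the joined female pools and 1 for the joined male pools. RGD1564865 (AKR1C3l1) is at 9.00 FPKM in female and 1.55 in male pools, and the next locus is at 1.52 and 6.75.

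RGD1563319 (chromosome 1, 222416238 to 222434776) was at 7.72 FPKM in female and 3.37 in male pools, 2.30-fold apart, and the authors' deposited table gives q = 0.0215. Its symbol has no match in RefSeq, and it is given no role here. It lies next to Ctsd, the gene of the lysosomal protease cathepsin D, which was at 484 FPKM in female and 497 in male pools and was not called. Between Dusp8 and Ctsd, RefSeq places 5 keratin-associated protein genes and Ifitm10, none of which has a row in the table. The other neighbours tested within 200 kb had no common direction. Syt8 (2.42 and 1.53 FPKM), Tnnt3 (2.16 and 1.19) and LSP1 (9.71 and 7.94) were higher in females. Cttn (4.72 and 6.11 FPKM), Tnni2 (0.697 and 0.805) and Mrpl23 (90.2 and 96.2) were higher in males, and none of these was called.

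The locus called higher in males was Epcip (RGD1562726, chromosome 11, 34831055 to 34848594), named for an exosomal protein that binds polycystin-1, the product of a gene mutated in polycystic kidney disease. It was at 5.21 FPKM in female and 8.45 in male pools, 1.62-fold apart, and the authors' deposited table gives q = 0.0097. Of its neighbours within 200 kb, Paxbp1 was at 11.4 and 12.3 FPKM and Synj1 at 4.65 and 4.58, while Eva1c was at 5.58 and 7.24, higher in males but not called. Another placeholder locus nearby, RGD1306954, now the cilium gene Cfap298, was at 44.3 FPKM in female and 42.7 in male pools.

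The 3 loci just outside the threshold were RGD1566368, Ecrg4 and Sugct. RGD1566368, which has no match, was at 0.682 FPKM in female and 0.192 in male pools (q = 0.0633 in the authors' deposited table). It lies between Limd1 and Slc6a20a, where RefSeq places Slc6a20b, of a family of transporters for amino acids, without a row of its own. Sugct, an enzyme of glutarate breakdown, was at 5.63 FPKM in female and 3.19 in male pools, 1.77-fold apart, and the authors' deposited table gives q = 0.107. Its interval of 1050413 bases is shared with another locus.

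Markers of the proximal tubule, a segment of the cortex and outer medulla, were mostly higher in females too. Of 14 tested markers, 11 were called, all higher in females, and 2 more were in the table but not tested. Their summed level was 1103 FPKM in female and 236 in male pools, of which Kap made up 910.0 and 131. None of the 16 proximal tubule markers found in the table was at 0 in both sexes. Marker sums were also higher in females for urothelium (36.7 against 19.2 FPKM), leukocytes (331 against 248), adipocytes (97.0 against 52.6) and red blood cells (261 against 216), and lower for the thick limb and distal tubule (1082 against 1119) and the collecting duct. Lyz2, not called, made up 304 and 226 FPKM of the leukocyte sum, in which Cd79b was higher in males, and Fabp4 made up 92.5 and 49.96 of the adipocyte sum. Umod, not called, made up 830 and 904 FPKM of the thick limb and distal tubule sum. The 6 markers of that sum had a median log2 ratio of 0.05, and the 1 called, Egf, was higher in females (7.61 against 4.42 FPKM). Of the 7 collecting duct markers 0 were called, and Scnn1b was higher in females. The part of cell types in the differences of AKR1C3l1, RGD1563319, Sugct and RGD1566368 was not tested. Nor was it tested for Epcip and Ecrg4, both higher in males.

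Apart from these, differences between the sexes were small. Of the 366 loci, 185 were higher in females and 181 in males, or 228 and 138 with each sex divided by its FPKM sum. Under 1.5-fold apart were 325 (88.8%), against 80.4% of all tested loci above 0 in both sexes and 89.04% of those with another symbol. On the log2 scale the ratio of female to male had a median of 0.00153 (interquartile range -0.14 to 0.18), beside -0.00479 over all tested loci. This median joins ranges of level that leaned in opposite directions. Under 1 FPKM it was 0.225, with 44 loci higher in females and 21 in males. At 10 to 100 FPKM it was -0.036, with 49 higher in females and 74 in males. Over all tested loci of these ranges the medians were 0.195 and -0.033. Of the 366 placeholder loci, 21 were 2-fold or more apart, against 573 of 12656 loci with another symbol and 1886 of 20037 in all. Of the 21, 16 had a mean under 1 FPKM. At equal transcript length such a value rests on fewer fragments than a higher one, but fragment counts per locus were not available here. At 10 to 100 FPKM 122 of 123 were under 1.5-fold apart and at 100 or more all 17, among them Ecrg4 as the widest. Across the 366 loci the log2 levels of females and males had a Pearson r of 0.98, as a description of 2 joined values per locus (0.96 over 20037 loci).

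**Figure D4:**
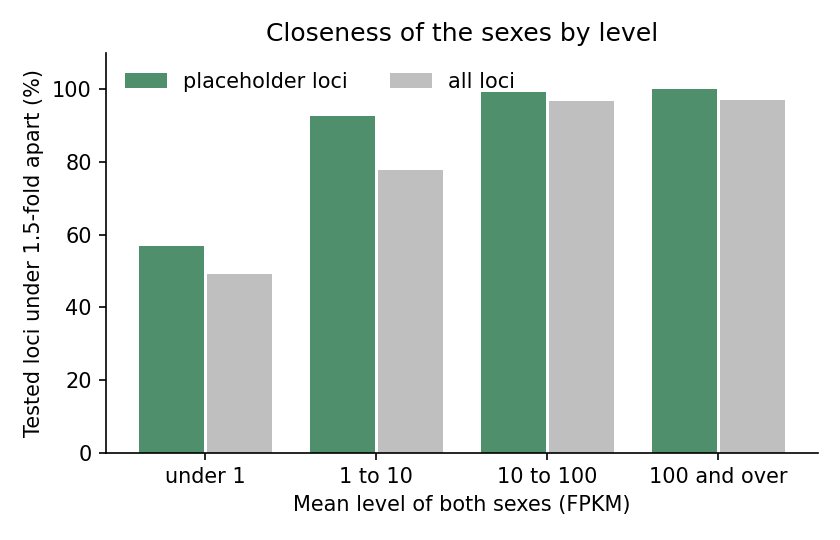
Percent of tested loci under 1.5-fold apart between the sexes (y axis), by mean level of both sexes (x axis, FPKM), for placeholder loci and for all loci. The share for placeholder loci goes from 56.9% under 1 FPKM to 100% at 100 or more, and for all loci from 49.2% to 97.0%.

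Current names let part of the loci be grouped by role, in lists drawn up after values had been seen, so nothing is read from their counts. Among 12 metabolic enzymes, 7 were higher in females and 5 in males, with a median log2 ratio of 0.26 beside -0.00479 over all tested loci. AKR1C3l1 was the 1 called of these 12, against 2.34% of all tested loci. Besides Sugct, Cryzl2, related to the lens protein zeta-crystallin, was at 5.75 FPKM in female and 3.94 in male pools, with p = 0.0363 in the authors' deposited table. The interval of Cryzl2 is also shared with another locus. Pnpla4, a lipase of the patatin family, was at 7.48 and 5.77 FPKM. Urah, which acts in urate breakdown, was at 0.700 and 0.292 FPKM on 1 row and not tested on the other. Pstk, a kinase needed for making selenocysteine transfer RNA, was at 32.2 FPKM in female and 36.1 in male pools, and Dhrs13 at 19.1 and 21.0.

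Among 5 secreted or surface proteins, Epcip was called, and Epcip, Ecrg4 and Ndnf had p under 0.05 in the authors' deposited table, where 2.34% of all tested loci were called and 9.77% had such a p. Ndnf, a secreted neurotrophic factor, was at 0.357 FPKM in female and 0.0842 in male pools. Slurp2, a secreted protein of the Ly6 family on a shared interval of 301170 bases, was at 7.72 and 6.80 FPKM. The lectin-like Zg16b was at 3.30 and 3.64. Of these 5, only Ecrg4 was above 10 FPKM.

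Of 17 genes of the cilium and centrosome, a list in which none was called, 12 were higher in males and 5 in females, with a median log2 ratio of -0.04, but with each sex divided by its FPKM sum 10 were higher in females and 7 in males. All but 1 were under 1.5-fold apart. The exception, Cfap68, a protein of motile cilia, was at 1.84 FPKM in female and 0.466 in male pools, for which the authors' deposited table gives p = 0.0214 and q = 0.328. Cep15 was at 81.7 and 96.6 FPKM, Cfap141 at 55.2 and 56.6 and Cfap298 at 44.3 and 42.7. In 11 genes of endosomes, lysosomes and trafficking, 9 were higher in males, or 7 with that scaling, and none was called. Glmp, a protein of the lysosomal membrane, was at 47.2 FPKM in female and 54.9 in male pools. Washc4 (12.8 and 13.4 FPKM) and Washc5 (12.5 and 12.6 FPKM) are subunits of the WASH complex, which shapes actin on endosomes. Over all tested loci of 10 to 100 FPKM, 3857 were higher in males and 2657 in females.

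The 10 genes of mitochondrial assembly and function were all under 1.5-fold apart, 6 of them higher in females, with a median log2 ratio of 0.00467. Gatd3a was at 160.3 FPKM in female and 160.0 in male pools. Dnajc19, a co-chaperone of the import motor, was at 78.5 and 89.1 FPKM, and Timm29, a subunit of an import complex of the inner membrane, at 20.9 and 21.0. Dele1, which signals mitochondrial stress, was at 20.5 and 17.4 FPKM. The 10 genes of RNA processing and the 5 of ribosome assembly and translation were likewise all under 1.5-fold apart, among them Ints8 of the Integrator complex (14.7 and 17.4 FPKM) and Rbis, a factor of ribosome biogenesis (156 and 167 FPKM). So were the 8 genes of DNA repair and replication, in which Paxx of end joining was at 46.6 and 53.0 FPKM and Fancm of the Fanconi pathway at 1.83 and 2.01.

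Of 10 genes listed by their symbols under chromatin and transcription, 7 were under 1.5-fold apart and none was called. Jade3, a subunit of a histone acetyltransferase complex, was at 0.828 FPKM in female and 1.28 in male pools. Phf24, whose role in chromatin was not checked, was at 0.499 and 0.310, and Pou2af3 at 0.669 and 0.376. Resf1, the most abundant of the list, was at 36.6 and 33.3. Both clock genes of the set were measured. Ciart, which represses transcription driven by the CLOCK and BMAL1 activators at E-boxes, was at 1.10 FPKM in female and 1.91 in male pools, a log2 ratio of -0.80, and the authors' deposited table gives q = 0.595. Cipc, an inhibitor of CLOCK, was at 9.88 and 9.92 FPKM. The Ciart promoter printed above holds 3 CACGTG motifs, the letters of such E-boxes.

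**Figure D5:**
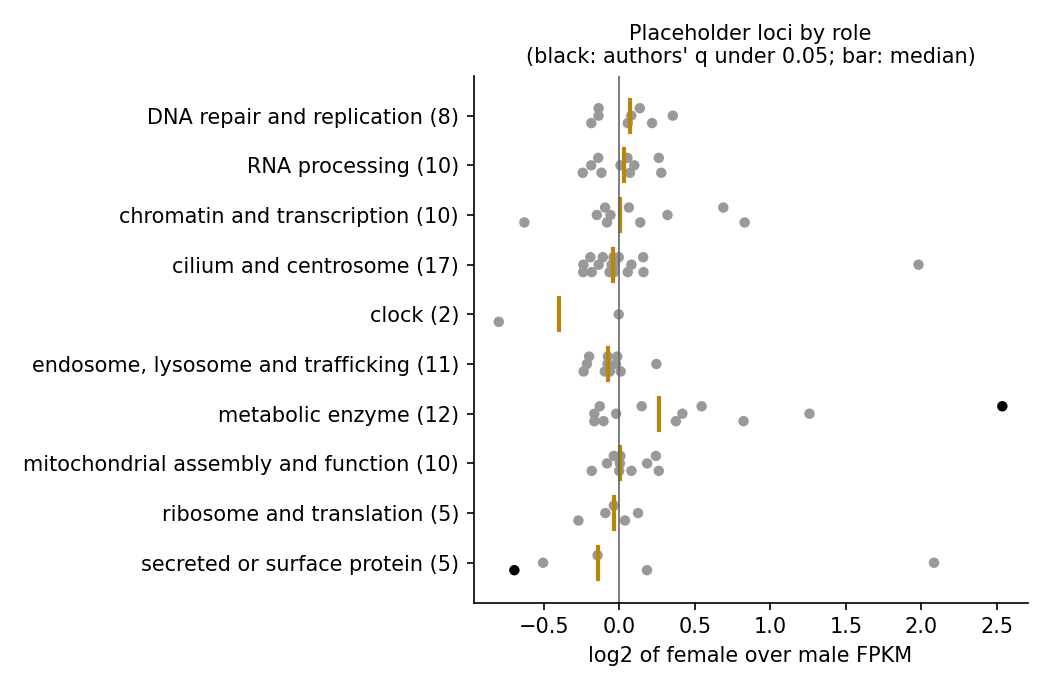
Log2 ratio of female to male FPKM (x axis) of placeholder loci with a current name, by role (number of tested rows in brackets), 1 point per locus, black where the authors' q was under 0.05, with a bar at the median. Epcip (-0.70) and AKR1C3l1 (2.54) are the black points, and most others lie near 0.

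Besides RGD1566368, 9 of the 18 loci with p under 0.05 had no call and stood on none of the role lists. C19h1orf198 was at 35.8 FPKM in female and 26.3 in male pools, and C13h1orf21 at 9.59 and 6.27, for which the authors' deposited table lists q of 0.199 and of 0.241. The mouse clone name 6430548M08Rikl stood at 4.84 and 3.30 FPKM. Towards males, C8h15orf39 was at 3.27 FPKM in female and 4.66 in male pools, 9530082P21Rikl at 16.8 and 21.5, and Arfgef3, of a family of exchange factors for ARF GTPases, at 0.939 and 1.38. Inava, an activator of innate immune signalling, was at 2.51 and 1.70 FPKM, Tasl, an adaptor of endosomal Toll-like receptors, at 0.684 and 0.282, and C8h3orf18 at 0.648 and 0.329. The 63 tested loci with an open reading frame name had a median log2 ratio of 0.02, with 35 higher in females, 28 in males and 57 under 1.5-fold apart.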

How the data were processed

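Library preparation kept strand and reads were paired, per the labels' protocols. Build rn5 and the tools TopHat2 2.1.1, Cufflinks 2.2.1, StringTie, FastQC and cutadapt are listed in the submitters' processing notes, without their roles. Columns are laid out as Cuffdiff writes them, with 1 value per sex, per the file headers. No header names the unit, and the values deposited by the authors were taken to be FPKM. Each p-value or q-value printed is from the authors' deposited table, where q equals a Benjamini-Hochberg adjustment over the tested loci to within 5.26e-07. Read counts per library were taken from another table deposited by the authors. Positions are rn5 intervals as deposited; promoters are GRCr8.

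Computed here, with Python 3.11.15 and pandas 2.3.3, were the choice of loci, log2 ratios with no pseudocount, counts, medians and motif matches; the adjustment of p was tested on simulated data. Symbols were matched to RefSeq as current symbols or as a synonym of a single gene. Flanks in the table were the nearest loci with a single RefSeq symbol and an unshared interval, at most 1 Mb apart in RefSeq, and genes that overlap a flank were not counted as between them. With 1 value per sex no test between pools was run. Genes named by rule were called loci, the 10 of highest mean and the 3 on either side of q = 0.05. The classes planned from gene descriptions could not be used, as the RefSeq table used holds none; name types and role lists were drawn up instead from current symbols, after values had been seen, as was the choice of other genes named. The loci and lists were chosen with earlier results of these data known.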

Additional observations from a re-analysis of the deposited data

How the results depend on the processing

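No paired analysis was possible because the table holds 1 joined value per sex, and for the same reason no pool could be left out. At q under 0.01 there was 1 call towards females, AKR1C3l1, and 1 towards males, Epcip, and RGD1563319 was lost, the 1 called locus without a RefSeq match, while at q under 0.1 there were 2 higher in males, with Ecrg4, and 1.37% of the tested loci called. With p adjusted again over loci averaging 5 FPKM or more, the same counts gave 1.52% of 197 loci. The counts in each direction did not change with loci of at least 1 FPKM, with single-symbol rows, with 1 row per symbol, with unshared intervals or with joined symbols. Under the settings tried the median log2 ratio lay near 0, at -0.0122 for loci of at least 1 FPKM and -0.0220 for at least 5. Loci under 1 FPKM, taken alone in no setting, had a median of 0.225. With each sex divided by its FPKM sum the median of all tested placeholder loci was 0.0615, a shift of 0.06 for every locus. Under that scaling the higher row of RGD1565183 changed sign, to 0.05. The direction counts by role with that scaling were added after seeing the data. At q under 0.01 the calls in the other name types, which stood in for the planned classes, did not change. With a pseudocount of 1, the log2 ratio of RGD1566368 went from 1.82 to 0.50 (1.42 with 0.1), that of AKR1C3l1 to 1.97, RGD1563319 to 1.00 and Sugct to 0.66. Depth limits the loci under 1 FPKM most, and with joined FPKM values no counting interval could be set.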
